A study of Mus musculus with 4 samples.

Results

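The Zscan4 genes are a cluster of near-identical zinc finger genes on mouse chromosome 7 whose transcripts mark the two-cell embryo. They were taken as the rows of the deposited tables whose gene symbol starts with Zscan4, which gave 5 of the 24411 rows, Zscan4a, Zscan4b, Zscan4c, Zscan4d and Zscan4f. Zscan4e, a sixth gene of the cluster, was not analysed here. The values come from polyadenylated RNA of ICR embryos at the late two-cell stage, produced by in vitro fertilization, cultured in KSOM and collected at 36 h post-insemination (hpi), with 10 embryos pooled in each library. Embryos of 2 libraries (DMSO replicates 1 and 2) received the solvent DMSO. Embryos of the other 2 (MYC-inhibited replicates 1 and 2) received 6 µM 10074-G5, an inhibitor of MYC that blocks its dimerization with MAX. Both treatments began at the one-cell stage, at 3 hpi in the labels of the samples and at 6 hpi in the text of the series, and ran until collection. No gene was altered, so MYC was inhibited only chemically, and a difference between pooled libraries can reflect fewer embryos expressing a gene or less RNA per embryo, which cannot be told apart here.

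ZSCAN4 proteins carry a SCAN domain, used for pairing with other proteins, and zinc fingers that bind DNA. In the embryo, Zscan4 transcription belongs to the burst of transient genes that follows minor zygotic genome activation (ZGA), and the transcripts are cleared as cleavage proceeds. In embryonic stem cells the genes are switched on in a small and changing fraction of cells that resemble two-cell embryos, where they are known for lengthening telomeres by recombination and for a transient loss of DNA methylation. Zscan4d is known as the main transcript of the two-cell embryo, and Zscan4c as the main one of embryonic stem cells. DUX and DPPA2 with DPPA4 are known activators of the cluster, and the chromatin factors that keep two-cell genes silent are known repressors.

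The expected counts summed to between 18206584 and 20718690 per library. DMSO replicate 1 stood apart from the other 3 libraries for many genes, and the fold changes of the Zscan4 genes and the medians of the related gene lists are also given without it. The labelled stage was checked on other transient two-cell transcripts. Zfp352, a zinc finger gene of this stage, had 189 and 417 FPKM (fragments scaled to effective transcript length and library size) in the DMSO libraries and 550 and 513 FPKM in the MYC-inhibited ones. Tcstv1, another gene of the two-cell burst, had 186 and 812 FPKM in DMSO and 1075 and 1241 FPKM in MYC-inhibited libraries. Both were present in every library and lowest in DMSO replicate 1. Of 15 markers of cumulus cells, which surround the oocyte, 7 to 10 were at 0 counts in a library, and the FPKM summed over all 15 was between 7.69 and 22.7. Amhr2, the cumulus marker with the highest level, had 21.5 and 8.57 FPKM in DMSO and 5.57 and 4.45 FPKM in MYC-inhibited libraries.

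The gene annotation (GENCODE M21, build GRCm38, the assembly of the mm10 genome used by the authors) places 9 Zscan4 copies on chromosome 7 between 10794242 and 11614112. Zscan4a lies at chr7:10794242-10799057 on the minus strand and is annotated as an unprocessed pseudogene, Zscan4b at chr7:10900740-10905050 on the minus strand, Zscan4c at chr7:11005745-11010547 on the plus strand, Zscan4d at chr7:11161374-11166159 on the minus strand and Zscan4f at chr7:11397915-11402318 on the plus strand. The last 4 are annotated as protein-coding, and each transcript used here has 4 exons. The cluster also holds Zscan4e and the copies named Zscan4-ps1, Zscan4-ps2 and Zscan4-ps3, for which no expression value is given. The nearest protein-coding genes outside the cluster with a row in the tables are the vomeronasal receptor genes Vmn1r71 and Vmn1r72. Vmn1r71 was listed at 0 in all 4 libraries, and Vmn1r72 at 0 in all but DMSO replicate 2, where it had 0.60 FPKM.

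The sequences before the start sites show how alike the copies are, and they are the stretch where a regulator would act. RefSeq (GRCm38.p6) gives promoters for 4 of the 5 genes. The 130 bases before each RefSeq start are printed 5′ to 3′ on the gene's own strand. Capitals mark the TATA box (TATAAA) and a 9-base stretch that reads, on the opposite strand, as GATTNNATC, where N is any base. This is a loosened form of the core of the palindrome bound by DUX. The pattern is not its own reverse complement and was searched on both strands.
Zscan4b, chr7:10905051-10905180, minus strand: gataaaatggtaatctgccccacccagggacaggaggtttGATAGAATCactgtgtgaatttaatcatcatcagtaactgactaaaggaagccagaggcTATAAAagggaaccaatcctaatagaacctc
Zscan4c, chr7:11005615-11005744, plus strand: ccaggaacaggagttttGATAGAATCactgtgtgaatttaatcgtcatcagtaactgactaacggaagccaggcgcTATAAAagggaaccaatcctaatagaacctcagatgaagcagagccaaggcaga
Zscan4d, chr7:11166149-11166278, minus strand: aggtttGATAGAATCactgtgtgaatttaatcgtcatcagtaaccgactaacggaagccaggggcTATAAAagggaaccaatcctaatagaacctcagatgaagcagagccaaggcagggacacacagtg
Zscan4f, chr7:11397785-11397914, plus strand: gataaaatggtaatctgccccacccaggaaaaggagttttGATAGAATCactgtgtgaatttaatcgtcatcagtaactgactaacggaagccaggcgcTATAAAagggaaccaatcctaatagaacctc

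The TATA box began 31 bases before the RefSeq start of Zscan4b and Zscan4f, 54 before that of Zscan4c and 65 before that of Zscan4d. The starts were thus annotated at different points of a shared sequence. GENCODE starts Zscan4d at 11166159, inside its printed window, so the distance of 65 holds for the RefSeq start only. Over the 250 bases before the start, the promoters of Zscan4c and Zscan4f were identical at 226 of 227 aligned bases (99.6%), and the least alike pair, Zscan4b and Zscan4c, at 215 of 227 (94.7%). On either strand of these 250 bases, TATAAA was found in 4 of 4 Zscan4 promoters and in 12.4% of all 32851 promoters in the table. The loosened pattern GATTNNATC was found in 4 of 4 and in 1.39% of all. The E-box CACGTG, the sequence preferred by MYC with MAX, was found in 0 of 4 and in 6.02% of all, and the looser E-box CANNTG, which includes it, in 2 of 4 (Zscan4c and Zscan4d, each as CAGATG) and in 66.2% of all. In the shared sequence, CAGATG would begin at the last base of the Zscan4b and Zscan4f windows, which end there. The 2 of 4 thus depends on the annotated starts and does not show that Zscan4b and Zscan4f lack this stretch. The 4 windows are copies of one another and count as 1 observation, and a match does not show that a factor binds there.

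Because the copies are so similar, the level of a single Zscan4 gene depends on how its fragments were told from those of the others. Zscan4c and Zscan4f transcripts were identical at 1799 of 1806 aligned bases (99.6%), and Zscan4f and Zscan4-ps2, a copy without an expression value here, at 1802 of 1806 (99.8%). Zscan4b and Zscan4e were identical at 1740 of 1745 bases (99.7%). Zscan4d had 97.8% identity to Zscan4f and 97.5% to Zscan4c. Of the 150-base windows of a transcript, the length of 1 read, 87.0% in Zscan4d and 74.9% in Zscan4a occurred in the annotated transcripts of no other gene, against 39.0% in Zscan4c, 31.8% in Zscan4b and 13.8% in Zscan4f. With windows of 280 bases, close to the mean fragment length in these libraries, the shares were 99.5% in Zscan4d, 87.8% in Zscan4a, 67.3% in Zscan4c, 59.9% in Zscan4b and 30.5% in Zscan4f. The authors kept only uniquely mapped reads, but the expected counts of all 5 genes were not whole numbers in any library, against 3.97% to 4.49% of all rows, so part of the Zscan4 fragments was divided between rows. The annotated transcript has 2272 bases for Zscan4d and 2279 for Zscan4a, against 1992 and 2257 in the deposited values. For Zscan4b, Zscan4c and Zscan4f the lengths match. Windows of the shorter forms were not computed. Most windows of the annotated Zscan4d transcript are its own, while the split of counts among Zscan4f, Zscan4b and Zscan4c is uncertain.

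**Figure D1:**
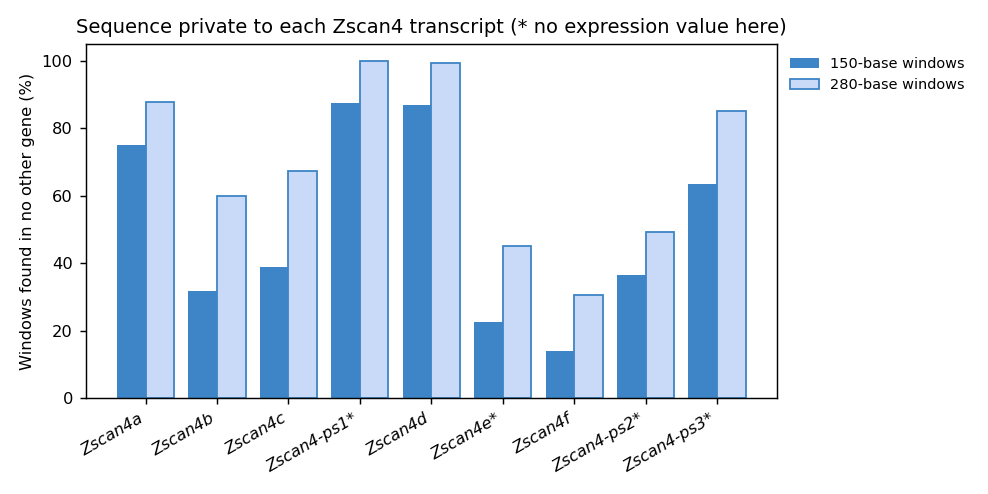
Share of the 150-base and 280-base windows of each annotated Zscan4 transcript that occur in the transcripts of no other gene (y axis, %), with the genes in chromosome order and a star where no expression value is given. Zscan4d stands at 87.0% and 99.5%, and Zscan4f is lowest at 13.8% and 30.5%.

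All Zscan4 genes were lowest in DMSO replicate 1, and 4 of the 5 were higher in both MYC-inhibited libraries than in both DMSO libraries. Added over the 5 genes, Zscan4 transcripts made up 0.0213% of the expected counts of DMSO replicate 1, 0.195% of DMSO replicate 2, 0.317% of MYC-inhibited replicate 1 and 0.284% of MYC-inhibited replicate 2. In CPM (counts scaled to the TMM-normalized library total) the sum was 244 and 1879 in the DMSO libraries and 3050 and 2681 in the MYC-inhibited libraries. DMSO replicate 2 was thus 7.69-fold above DMSO replicate 1, while MYC-inhibited replicates 1 and 2 were 1.62-fold and 1.43-fold above DMSO replicate 2. The log2 CPM of the sum averaged 9.40 in DMSO and 11.48 in MYC-inhibited embryos, a difference of 2.08 against a pooled SD between replicates of 1.47 (log2 CPM, n = 2 per group). The DMSO replicates differed from each other by 2.94 on this scale, and without DMSO replicate 1 the difference between the groups was 0.61. The log2 of the ratio of the mean CPM, which gives less weight to the lowest library, was 1.43.

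Zscan4d, the known two-cell form and the one of the 5 genes with the most private sequence, had 50.8 FPKM in DMSO replicate 1 and 382 in DMSO replicate 2. It had 524 FPKM in MYC-inhibited replicate 1 and 459 in MYC-inhibited replicate 2. The MYC-inhibited libraries lay close together and above both DMSO libraries, and DMSO replicate 2 lay much nearer to them than to DMSO replicate 1. The mean was 217 ± 234 FPKM (SD, n = 2) in DMSO and 492 ± 46.0 FPKM (SD, n = 2) in MYC-inhibited embryos. The log2FC of Zscan4d was 1.14 with a standard error (SE, derived from the edgeR test) of 0.75. Its Benjamini-Hochberg adjusted p in the edgeR quasi-likelihood fit of 13549 genes was 0.467, and the log2FC was 0.36 without DMSO replicate 1.

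Zscan4f, a protein-coding gene on the plus strand, had 49.3 and 347 FPKM in DMSO replicates 1 and 2 and 900 and 553 FPKM in MYC-inhibited replicates 1 and 2. The groups did not overlap, and Zscan4f was the Zscan4 gene with the highest level in both MYC-inhibited libraries. It was the 130th highest of all listed genes by FPKM in MYC-inhibited replicate 1 and the 2046th in DMSO replicate 1. The mean was 198 ± 210 FPKM (SD, n = 2) in DMSO and 726 ± 245 FPKM (SD, n = 2) in MYC-inhibited embryos. The log2FC of Zscan4f was 1.83 (SE 0.77; edgeR unadjusted p = 0.0458, adjusted p = 0.334), the largest of the 5 genes, and 1.07 without DMSO replicate 1 (adjusted p = 0.208). Among the fits on all libraries, Zscan4f was the Zscan4 gene whose call depended on the tool and on the filtering. DESeq2 gave an adjusted p of 0.0407 on the genes tested by edgeR, 0.0498 on all genes with at least 1 count and 0.0487 with effective transcript lengths on those genes, and 0.0510 with the lengths on every listed gene at its default filtering. The edgeR test without a filter on low counts gave 0.00819.

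Zscan4c, the known embryonic stem cell form, was the gene whose groups overlapped. It had 14.6 FPKM in DMSO replicate 1, 252 in DMSO replicate 2, 250 in MYC-inhibited replicate 1 and 385 in MYC-inhibited replicate 2. DMSO replicate 2 and MYC-inhibited replicate 1 thus had nearly the same level. The mean was 133 ± 168 FPKM (SD, n = 2) in DMSO and 318 ± 95.8 FPKM (SD, n = 2) in MYC-inhibited embryos, and the log2FC was 1.22 (SE 0.98; edgeR adjusted p = 0.544). Without DMSO replicate 1 the log2FC was 0.33.

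Zscan4a and Zscan4b were the least abundant. Zscan4a, annotated as a pseudogene, had 7.72 and 81.0 FPKM in DMSO libraries and 102 and 145 FPKM in MYC-inhibited libraries, and its log2FC was 1.44 (SE 0.84; edgeR adjusted p = 0.422). Zscan4b had 3.53 and 64.5 FPKM in DMSO libraries and 116 and 93.5 FPKM in MYC-inhibited libraries, and its log2FC was 1.60 (SE 0.99; edgeR adjusted p = 0.441). Neither gene had overlapping groups, and in both the DMSO replicates differed more from each other than DMSO replicate 2 did from the MYC-inhibited libraries. Without DMSO replicate 1 the log2FC was 0.61 for Zscan4a and 0.70 for Zscan4b.

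**Figure D2:**
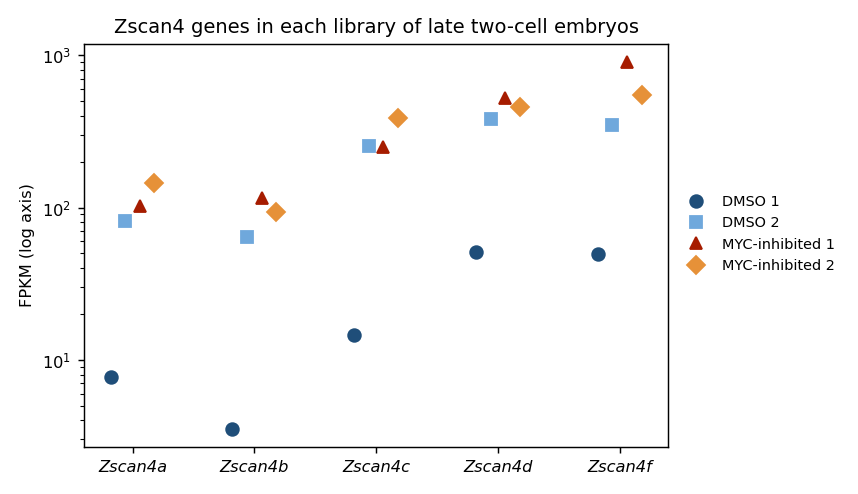
FPKM of the 5 Zscan4 genes (y axis, log scale) in each library, 1 point per library with no averaging. DMSO replicate 1 is lowest for each gene, at 3.53 to 50.8 FPKM, while DMSO replicate 2 lies at 64.5 to 382 FPKM, close to the MYC-inhibited libraries.

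At the thresholds of the study's methods (|log2FC| > 1 and an adjusted p under 0.05), edgeR called 0 of the 5 Zscan4 genes, against 0% of the 13549 tested genes (0 genes). The study itself applied these thresholds with DESeq2, not edgeR. In edgeR all 5 Zscan4 genes had a log2FC above 1. At an unadjusted edgeR p under 0.05 and a log2FC over 1, 1 of the 5 was counted (Zscan4f), against 4.56% of all tested genes in this direction. The median log2FC was 1.44 over the 5 genes and 0.04 over all tested genes. The CPM of both MYC-inhibited libraries lay above both DMSO libraries for 4 of the 5 genes, against 28.9% of tested genes, and below for 0 of the 5, against 28.3%. DESeq2 with effective lengths at its default filtering called 0 of the 5, against 1.01% of genes called higher and 5.22% called lower among the 8154 to which it gave an adjusted p. With 2 libraries in each group, the smallest two-sided p that an exact permutation test of 1 gene allows is 0.333.

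Set beside all other genes, the Zscan4 genes were among those that differed most between the DMSO replicates. The log2 CPM (with 0.5 added) of Zscan4c was 3.83 higher in DMSO replicate 2 than in DMSO replicate 1, and 22 of the 13549 tested genes (0.162%) had a larger positive difference. For Zscan4b this held for 24 genes, for Zscan4a 111, for Zscan4d 234 and for Zscan4f 280 (2.07%), while the median of all tested genes was 0.05. Between MYC-inhibited replicate 1 and DMSO replicate 2, the difference was 1.38 for Zscan4f, with 5.43% of genes above it, and -0.01 for Zscan4c, near the median of all genes. Between MYC-inhibited replicate 2 and DMSO replicate 2, the 5 genes were higher by 0.24 (Zscan4d) to 0.81 (Zscan4a), and 12.9% to 35.2% of genes lay above these values. MYC-inhibited replicates 1 and 2 differed from each other by -0.73 (Zscan4f) to 0.60 (Zscan4c).

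**Figure D3:**
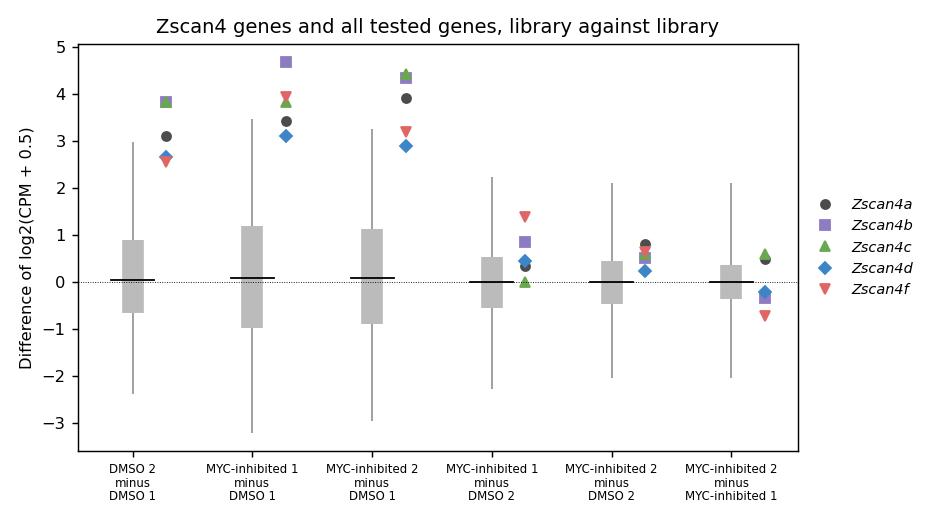
Difference of log2(CPM + 0.5) between libraries (y axis) for the 5 Zscan4 genes (coloured points) and all 13549 tested genes, whose median (black line), interquartile range (grey box) and range from the 1st to the 99th percentile (thin line) are shown. The Zscan4 genes lie 2.56 to 3.83 above zero between the DMSO replicates and -0.01 to 1.38 between the MYC-inhibited libraries and DMSO replicate 2.

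Levels per transcript length followed the order Zscan4d, Zscan4f, Zscan4c, Zscan4a, Zscan4b in both DMSO libraries. In both MYC-inhibited libraries Zscan4f stood above Zscan4d, Zscan4c was the third, and Zscan4b stood above Zscan4a in replicate 1 and below it in replicate 2. Zscan4d and Zscan4f thus exchanged places, as did Zscan4a and Zscan4b, so neither pair kept one order in all libraries. The ratio of Zscan4f to Zscan4d in FPKM was 0.971 and 0.907 in DMSO and 1.72 and 1.20 in MYC-inhibited libraries. The ratio of Zscan4f to Zscan4c followed the replicate numbers instead. It was 3.37 in DMSO replicate 1 and 3.60 in MYC-inhibited replicate 1, and 1.38 in DMSO replicate 2 and 1.43 in MYC-inhibited replicate 2. As a share of all Zscan4 counts, Zscan4c took 13.7% and 15.8% in the libraries numbered 1 and 25.8% and 27.1% in those numbered 2. Of the 10 pairs of Zscan4 genes, the FPKM ratio separated the groups in 2 and the replicate numbers in 6. The ratios are built from the same few genes, so these counts are not independent. The share over all gene pairs was not computed, and the counts have no background here. The labels do not say that a number marks a shared batch, and the part of read assignment between the copies in these ratios was not tested.

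**Figure D4:**
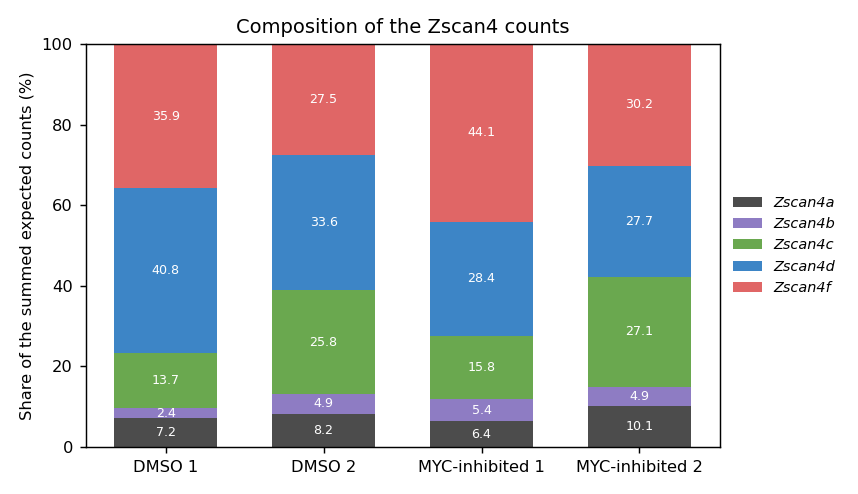
Share of each Zscan4 gene in the expected counts summed over the 5 genes (y axis, %), 1 bar per library. Zscan4c takes 13.7% and 15.8% in DMSO and MYC-inhibited replicates 1 and 25.8% and 27.1% in replicates 2, and Zscan4f takes the largest share, 44.1%, in MYC-inhibited replicate 1.

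Of 39 other listed transient genes of the two-cell embryo, 38 were tested, 29 were higher and 9 lower in MYC-inhibited embryos, and edgeR called 0 of them (4 higher and 3 lower at an unadjusted p under 0.05). Of all tested genes, 51.5% had a log2FC above 0 and 48.5% below 0, and 4.72% were higher and 10.1% lower at an unadjusted p under 0.05, the shares against which the counts of the lists stand. The median log2FC of the two-cell genes was 0.74, and 0.27 without DMSO replicate 1. After subtracting the mean of each gene, their median log2 CPM was -0.98 and 0.12 in DMSO and 0.43 and 0.38 in MYC-inhibited libraries. The corresponding values of the Zscan4 genes were -2.62 and 0.49 in DMSO and 0.95 and 1.12 in MYC-inhibited libraries, so both lists were lowest in DMSO replicate 1. The 3 genes of the list with the highest levels, Gm2016, Gm4027 and Gm5662, are predicted genes. Gm4027 had 403 and 1623 FPKM in DMSO and 2558 and 3277 FPKM in MYC-inhibited libraries. Usp17lc, a deubiquitinase gene of the two-cell burst, had 5.62 and 31.2 FPKM in DMSO and 36.9 and 40.5 FPKM in MYC-inhibited libraries. Tdpoz4, a gene of the TRAF and POZ domain family, had 44.7, 79.8, 76.3 and 78.7 FPKM in the 4 libraries in the same order, and its groups overlapped. The FPKM summed over 14 transcripts stored in the oocyte was 3010 and 7747 in DMSO libraries and 14325 and 13268 in MYC-inhibited libraries. Most of each sum came from 1 of the genes. Of the 14 transcripts, 12 were higher in MYC-inhibited embryos, with a median log2FC of 0.65 (0.36 without DMSO replicate 1) and 0 edgeR calls (4 higher and 1 lower at an unadjusted p under 0.05, against 4.72% and 10.1% of all tested genes). Among them Bmp15, a growth factor secreted by the oocyte, had 69.9 and 334 FPKM in DMSO and 504 and 461 FPKM in MYC-inhibited libraries. The part of these transcripts, or of the stage of the pooled embryos, in the Zscan4 difference was not tested.

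Of 12 tested genes listed as activators of Zscan4, 6 were higher and 6 lower in MYC-inhibited embryos. Their median log2FC was -0.08 (-0.21 without DMSO replicate 1), with 0 edgeR calls. At an unadjusted edgeR p under 0.05, 1 was higher and 2 lower, against 4.72% and 10.1% of all tested genes. The list also holds Trp53, Tet1, Tet2, Obox1, Obox2 and Obox3, and whether each activates Zscan4 was not tested. Dux, the factor that opens the two-cell programme, had 1.11 and 2.14 FPKM in DMSO and 1.35 and 0.58 FPKM in MYC-inhibited libraries, so its groups overlapped at a low level. Dppa2 and Dppa4, which are known to act upstream of Dux and Zscan4, had lower FPKM in both MYC-inhibited libraries than in both DMSO libraries. Dppa2 had 942 and 224 FPKM in DMSO and 106 and 114 FPKM in MYC-inhibited libraries (log2FC -2.63, adjusted p = 0.333 by edgeR and 0.0024 by DESeq2 with lengths at its default filtering), and Dppa4 1290 and 648 FPKM against 252 and 383 FPKM. Without DMSO replicate 1 the log2FC was -1.03 for Dppa2 (edgeR adjusted p = 0.151) and -1.02 for Dppa4, against -1.79 for Dppa4 with all libraries. In both genes DMSO replicate 1, where Zscan4 was lowest, had the highest level. Nelfa, a pausing factor subunit known to switch on Dux, had between 15.0 and 35.0 FPKM with overlapping groups, and Tbx3, a T-box factor, between 1.08 and 2.81 FPKM. Obox5, an oocyte and zygote homeobox gene, had 487 and 1895 FPKM in DMSO and 5175 and 4318 FPKM in MYC-inhibited libraries, with a log2FC of 1.93 (adjusted p = 0.333 by edgeR and 0.013 by DESeq2 with the same settings).

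Of 29 genes known as repressors of the two-cell programme, 22 were lower and 7 higher in MYC-inhibited embryos, the median log2FC was -0.70, or -0.38 without DMSO replicate 1, and edgeR called 0 (9 lower and 2 higher at an unadjusted p under 0.05, against 10.1% and 4.72% of all tested genes). Sumo2, a small protein attached to chromatin repressors, had 4204 and 2018 FPKM in DMSO and 803 and 1070 FPKM in MYC-inhibited libraries. Its log2FC was -1.92 (adjusted p = 0.333 by edgeR and 0.0095 by DESeq2 with lengths at its default filtering), and -1.10 without DMSO replicate 1 (edgeR adjusted p = 0.151). Pcgf6, a subunit of a Polycomb complex that holds MAX, had 221 and 237 FPKM against 174 and 156 FPKM.

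For telomere and recombination genes, the process Zscan4 is known for, 25 of 38 tested genes were lower and 13 higher, with a median log2FC of -0.41 (-0.30 without DMSO replicate 1) and 0 edgeR calls (6 lower and 2 higher at an unadjusted p under 0.05, against 10.1% and 4.72% of all tested genes). DESeq2 with lengths at its default filtering called 2 of them, Acd and Mei4, both higher. Nhp2 and Nop10, proteins of the telomerase and small nucleolar RNA particles, were the most abundant with Sycp3. Nhp2 had 1163 and 807 FPKM in DMSO and 312 and 587 FPKM in MYC-inhibited libraries. Sycp3, a component of the meiotic chromosome axis, had 575 and 740 FPKM in DMSO and 1099 and 979 FPKM in MYC-inhibited libraries. Of the meiotic genes tied to Zscan4 in embryonic stem cells, Spo11 was listed at 0 in all libraries, Dmc1 had between 0.15 and 2.54 FPKM, and Smc1b, a meiotic cohesin subunit, had 35.8 and 56.4 FPKM in DMSO and 32.3 and 62.2 FPKM in MYC-inhibited libraries. Tert, the telomerase enzyme, had at most 0.05 FPKM.

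Of 31 tested genes with a SCAN domain or a related symbol outside the cluster, 19 were lower and 12 higher in MYC-inhibited embryos, with a median log2FC of -0.47 (-0.21 without DMSO replicate 1) and 0 edgeR calls (3 lower and 0 higher at an unadjusted p under 0.05, against 10.1% and 4.72% of all tested genes). Zscan5b, the most abundant, had 146 and 133 FPKM in DMSO and 84.2 and 82.9 FPKM in MYC-inhibited libraries (log2FC -0.89, adjusted p = 0.333 by edgeR). Scand1, which has a SCAN domain and no zinc fingers, had 80.6 and 101 FPKM against 92.8 and 111 FPKM, and Zscan21 16.0 and 20.1 FPKM against 14.0 and 13.3 FPKM.

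**Figure D5:**
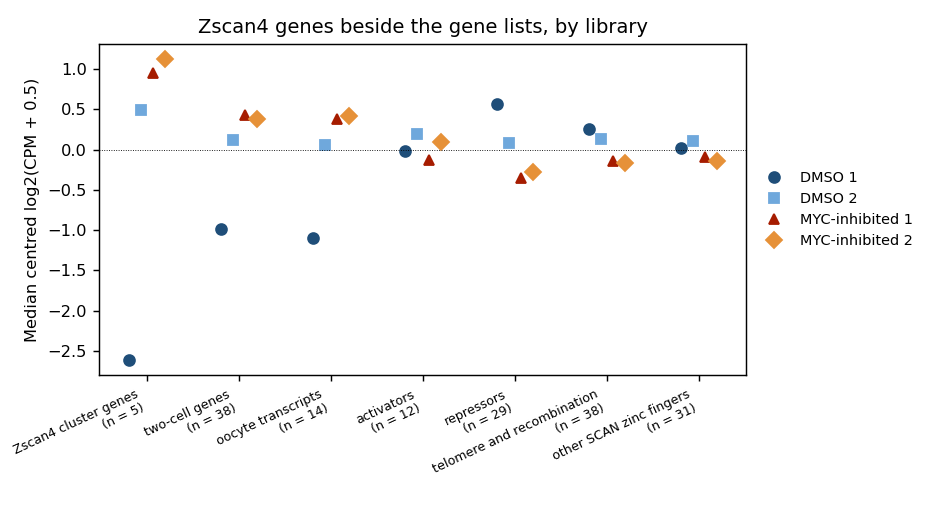
Median over the genes of each list of log2(CPM + 0.5), less the gene's own 4-library mean (y axis), with the number of tested genes under each list and 1 point per library. DMSO replicate 1 lies at -2.62 for the Zscan4 genes, -0.98 for the other two-cell genes and -1.10 for oocyte transcripts, and at 0.57 for the repressors.

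Likeness was measured as the Euclidean distance between centred log2 CPM profiles over the 4 libraries, among 5151 tested genes with a mean of at least 10 FPKM outside the cluster. The genes closest to the Zscan4 sum were Sc5d, a sterol desaturase gene, at a distance of 0.060, then Pkd2l2, a polycystin family gene, at 0.115, Lrriq3 at 0.126, Oas1f at 0.126 and AA545190 at 0.169. Pkd2l2 had 76.1 and 675 FPKM in DMSO and 1215 and 1002 FPKM in MYC-inhibited libraries, and Oas1f 3.05 and 27.2 FPKM against 47.9 and 42.2 FPKM. The Zscan4 genes themselves lay farther from their own sum, from 0.450 for Zscan4d to 0.849 for Zscan4c. With 4 points, 1 of which stands apart, the distance describes these libraries only.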

How the data were processed

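RNA-seq libraries of pooled late two-cell embryos (2 with DMSO, 2 with 6 µM 10074-G5) were grouped by their labels. The authors prepared cDNA with a SMART-Seq v4 kit, aligned read pairs to mm10 with STAR (2.7.10), kept reads with a unique position and estimated gene levels by RSEM (1.3.3). The expected count deposited per gene is an estimated number of fragments and is not normalized. The authors also deposited FPKM, which divides by effective length and library fragments, and TPM, which was read and not tested.

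Expected counts were rounded for testing. Genes passing filterByExpr (minimum count 10, minimum total 15; 13549 genes) were normalized with TMM and tested with edgeR 4.0.16 in R 4.3.3 (quasi-likelihood, robust, Benjamini-Hochberg). DESeq2 1.42.0, limma 3.58.1 on log2(FPKM + 1) or log2(FPKM + 0.1), other normalizations, no filter, a replicate block and leaving out each library were alternatives. DESeq2 at default filtering on every listed gene was added after values were seen. The pipeline was tested on simulated data.

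Named genes were all Zscan4 rows, the 3 most abundant genes of each list, known regulators, and the 5 nearest profiles. A gene that this rule names is not reported here. The members and lists were chosen with earlier results of these data known. Lists were written from general knowledge and matched by symbol. SD is over 2 libraries, and p-values measure the spread between pools of 10 embryos. The SE of an edgeR log2FC is its absolute value divided by the square root of the F statistic of the test. Amplified copies were counted as fragments. Transcript windows were compared with GENCODE M21 transcripts only, with no genome, and aligned with Biopython 1.88.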

Additional observations from a re-analysis of the deposited data

How the results depend on the processing

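All 5 Zscan4 genes kept a log2FC above 0 in all 70 combinations of gene and alternative. In the fits on all libraries, DESeq2 called 1 Zscan4 gene (Zscan4f) on the same genes. It did so too on all genes with at least 1 count and with effective lengths on those genes. The edgeR test without a filter also called Zscan4f alone. The share of all genes called in these fits is not given, so the calls have no background here. The number of Zscan4 genes called was 0 with DESeq2 size factors, library totals, limma, and DESeq2 at default filtering. With the replicate block it was 0, with a log2FC from 1.68 (Zscan4d) to 2.61 (Zscan4b) and adjusted p from 0.0603 to 0.264. The numbers share no labelled batch, and over 13549 genes the difference between replicates 1 and 2 had r = -0.03 between the groups.

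The size of the difference changed most with the DMSO library left out. Without DMSO replicate 2, DMSO replicate 1 was the lone control and its spread was assumed from the other group. The log2FC was then 3.73 for Zscan4a, 4.62 for Zscan4b, 4.17 for Zscan4c, 3.01 for Zscan4d and 3.62 for Zscan4f. Without DMSO replicate 1 it was 0.61, 0.70, 0.33, 0.36 and 1.07 in the same order. The log2 ratio of the mean summed CPM ranged from 0.61 without DMSO replicate 1 to 3.55 without DMSO replicate 2. It was 1.45 with DESeq2 size factors, 1.48 with library totals and 1.49 on FPKM. The calls ranged from 0 to 27 for two-cell genes, 0 to 6 for activators, 0 to 15 for repressors, 0 to 11 for telomere and recombination genes and 0 to 5 for other SCAN genes, in each case highest without DMSO replicate 2.

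DESeq2 on the same genes called 3 two-cell genes, 3 activators, 3 repressors and 2 telomere genes. On all genes with at least 1 count, with lengths, and at default filtering it called 2, 3, 1 and 2, and edgeR without a filter called 1, 3, 1 and 2. At default filtering DESeq2 called 1.01% of 8154 genes higher and 5.22% lower. For the other DESeq2 fits, edgeR without a filter and the fits that left out 1 library, the share over all genes is not given. The counts of these fits, and their Zscan4 calls, thus have no background here. The highest counts of the lists, found without DMSO replicate 2, also rest on DMSO replicate 1 as the lone control. They do not show that a list differs from other genes. The cause of these changes of count was not tested.

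The log2FC of 8 named genes changed sign under an alternative. Obox3 gave -0.0060 with DESeq2 on the same genes and with its size factors, -0.0054 with all genes and -0.0047 with lengths at either filtering. Leaving out 1 library moved the log2FC of Obox3 between -0.091 and 0.13, of Smc1b between -0.62 and 0.34, of Nelfa between -0.063 and 0.66, of Tbx3 between -0.080 and 0.86, of Scand1 between -0.070 and 0.20, of Tdpoz4 between -0.040 and 0.53, of Tnfaip6 between -0.70 and 8.92 and of Cyp19a1 between -0.026 and 2.13. Smc1b gave 0.037 with library totals. The lowest expected count of a Zscan4 gene was 99.8 (Zscan4b in DMSO replicate 1), and each group had 2 libraries.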
